A study of Homo sapiens with 18 samples.

Results

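The integrated stress response (ISR) is set off when the α subunit of the translation factor eIF2 is phosphorylated, and 10 genes that stand upstream of or at that step were followed here in RNA sequencing of 2 AML cell lines. They are the mitochondrial relay genes OMA1 and DELE1, the kinases EIF2AK1 (HRI), EIF2AK2 (PKR), EIF2AK3 (PERK) and EIF2AK4 (GCN2), the eIF2 subunits EIF2S1 (α), EIF2S2 (β) and EIF2S3 (γ), and PPP1R15B, the constitutive targeting subunit of the eIF2α phosphatase. They were chosen by name for their place in the pathway, and all 10 were listed among the 45372 symbols of the deposited table. The study sought drugs to combine with inhibitors of the survival protein MCL-1 in AML. It sequenced RNA to ask how blocking mitochondrial complex I primes the cells for such inhibitors. MV4-11 and THP1 (written THP-1 in the sample labels) are established lines from acute myeloid leukemia with a rearranged KMT2A gene, and they were given DMSO, the vehicle, or 50 nM IACS-010759 (IACS), a complex I inhibitor, for 8 h or 24 h. Each of the 6 groups had 3 libraries. Both IACS times were compared with 1 set of 3 DMSO libraries per line, which the labels do not tie to either time.

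In this pathway the inner membrane protease OMA1 cuts DELE1 when mitochondria are stressed, the DELE1 fragment gathers in the cytosol, and it binds and activates HRI. HRI, PKR, PERK and GCN2 answer to different signals (heme shortage or mitochondrial stress, double-stranded RNA, unfolded protein in the endoplasmic reticulum and uncharged tRNA), and each phosphorylates the same serine of eIF2α, which slows most translation and favors that of ATF4. These steps act on proteins, through cleavage, binding and phosphorylation, none of which a transcript level records.

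Values are TPM, a measure of transcript abundance that divides reads by gene length and gives every library the same sum, and differences are given on the scale of log2(TPM + 1). Whole reads could be recovered from the TPM steps for 99.8% of 14915 genes, and they summed to between 19864809 and 26449674 per library, with 281 to 12275 reads for a member in a library, so that counting error was at most 5.97%. A set of 5 short noncoding RNAs took from 39.6% to 60.1% of all TPM. Each member ran lower where that share was higher, with a Pearson r between -0.92 (EIF2AK1) and -0.48 (OMA1) over the 18 libraries centered on their line. The median of all genes tested against DMSO lay at 0.06 and 0.08 at 8 h and 24 h in MV4-11 and at -0.12 at both times in THP1. Of 12 myeloid markers, 10 had a median of at least 1 TPM in each line. CD14 lay below that level in both lines, ITGAM below it in MV4-11, and MEIS1 was near 0 in THP1.

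All members were expressed in every library, and they covered a wide range. In MV4-11, the median over 9 libraries ran from 247 TPM for EIF2S3 through 134 for EIF2S2, 48.7 for PPP1R15B, 44.5 for EIF2AK1, 42.6 for EIF2S1, 29.7 for DELE1, 14.5 for EIF2AK4, 8.66 for EIF2AK3 and 7.35 for OMA1 down to 4.38 for EIF2AK2. Within a library the order of neighbors held in 9 of 9 libraries except for EIF2AK1 and EIF2S1, where EIF2AK1 was the higher in 5. In THP1, the order was EIF2S3 (177 TPM), EIF2S2 (162), PPP1R15B (107), EIF2S1 (42.2), EIF2AK1 (36.7), DELE1 (22.3), EIF2AK2 (20.0), EIF2AK4 (14.8), OMA1 (8.84) and EIF2AK3 (6.18). There, EIF2S3 exceeded EIF2S2 in 8 of 9 libraries, EIF2S1 exceeded EIF2AK1 in 8, and DELE1 exceeded EIF2AK2 in 7. HRI was thus the most abundant kinase transcript in both lines, while PKR stood last of all members in MV4-11 and above GCN2 and PERK in THP1. Such orders depend on the gene lengths used for the TPM. The summed exons of GENCODE release 44 gave whole reads for 6 members, while EIF2AK2, EIF2AK3, EIF2AK4 and PPP1R15B needed another length, the shortest that gave whole reads for EIF2AK3 being 5470 bases against 20691 in the exons.

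**Figure D1:**
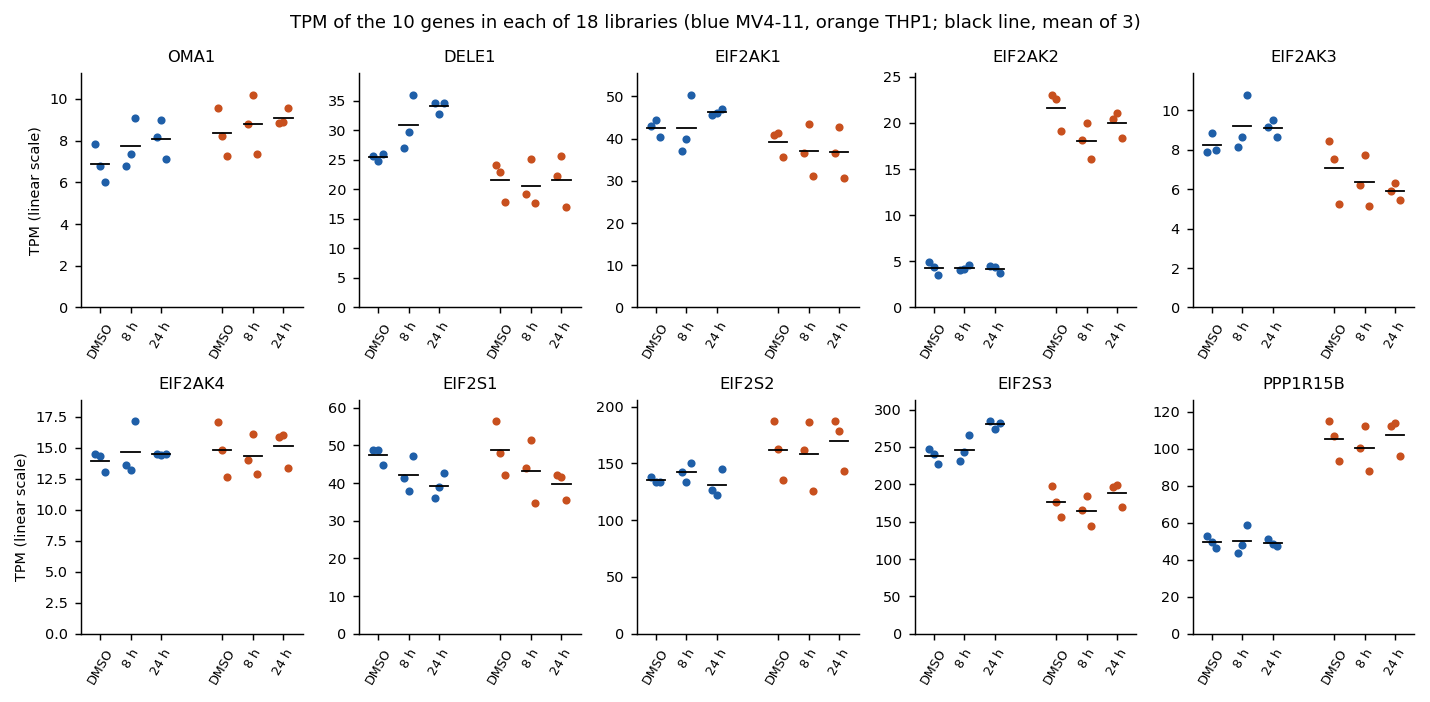
TPM of each of the 10 genes (vertical axes, linear, starting at 0) in the 3 libraries of each group, with MV4-11 in blue and THP1 in orange, points in replicate order and a black line at the mean. EIF2AK2 and PPP1R15B separate the lines in all 18 libraries, while within a line the points of DMSO, 8 h and 24 h mostly overlap.

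No change in the transcripts of the relay, the kinases, eIF2 or its phosphatase subunit passed the test after IACS. By limma with Benjamini-Hochberg adjustment, taking an adjusted p under 0.05 and a change beyond 1.5-fold as a call, 0 of 10 members were called in MV4-11 at 8 h (background 0.0148% of all genes tested) and 0 at 24 h (0.0886%). In THP1, 0 of 10 were called at 8 h (0.0144%) and 0 at 24 h (0.0431%). At an unadjusted p under 0.05, limma had 1 member in MV4-11 at 8 h (DELE1, background 4.39%), 2 at 24 h (DELE1 and EIF2S1, 12%), and 0 in THP1 at 8 h (2.11%) and 0 at 24 h (8.61%). By voom, also from limma, 0 members were called from the recovered reads, beside 9 genes in all at 8 h and 130 at 24 h in MV4-11, and 5 and 174 in THP1. With so few genes called by either method, a count of 0 among 10 does not set the members apart.

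The intervals say more about the size of change that the data allow. In MV4-11, the 95% interval of the change lay within 1.5-fold in both directions for 10 members at 8 h (77.8% of all genes) and for 9 at 24 h (70%), the exception being DELE1. In THP1, it did so for 10 members at 8 h (64.2%) and for 8 at 24 h (54.5%), the exceptions being EIF2AK3 and EIF2S1. Between 24 h and 8 h of IACS, 0 members were called in MV4-11 (0%) and 0 in THP1 (0.00718%). At an unadjusted p under 0.05, limma had 0 members in that comparison in MV4-11 (2.3%) and 0 in THP1 (4.99%). Same-numbered THP1 libraries of DMSO and 24 h deviated together, and a fit with the replicate number as a block called 296 genes there in place of 6 (2.13%), and 0 of the 10 members. Between 24 h and 8 h, numbers paired in THP1, and in MV4-11 only narrowly. There the block called 114 genes in place of 1 in THP1 (0.818%) and 1 in place of 0 in MV4-11 (0.00738%), and 0 members in either.

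**Figure D2:**
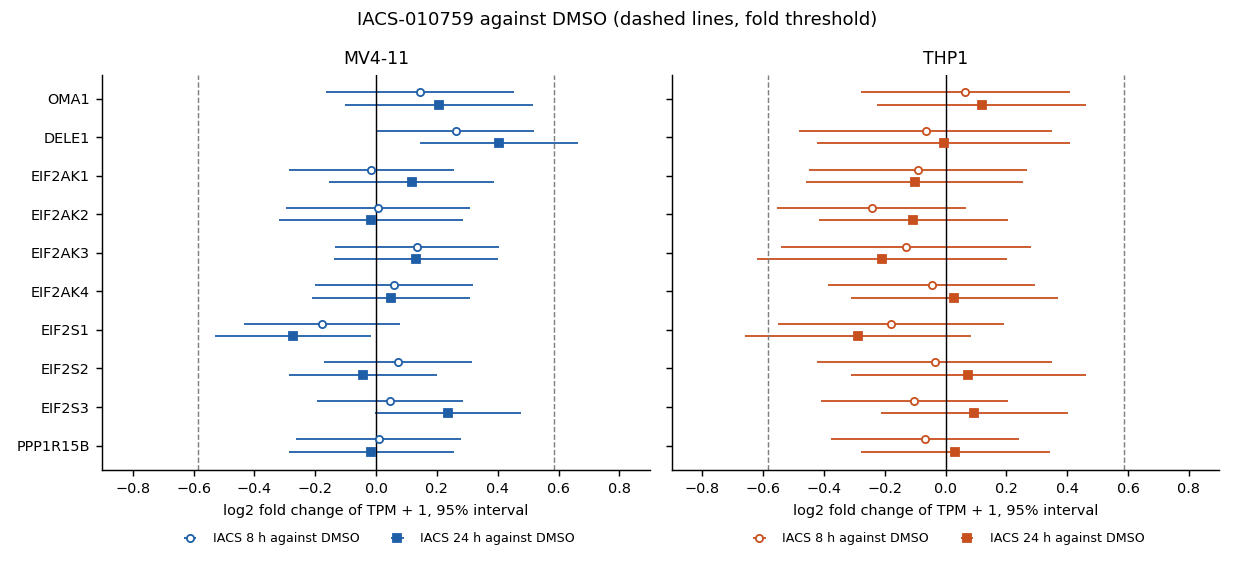
Log2 fold change of TPM + 1 against DMSO for the 10 genes in MV4-11 (left) and THP1 (right), with open circles for 8 h, filled squares for 24 h, bars for the 95% interval from limma, and dashed lines at 1.5-fold in either direction. The intervals of DELE1 at 24 h in MV4-11 and of EIF2AK3 and EIF2S1 at 24 h in THP1 reach past a dashed line, and no estimate does.

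DELE1 (chr5:141923855-141942047, plus strand, GRCh38), the messenger that carries mitochondrial stress to HRI, had the largest log2 change of the members in MV4-11 before the median of all genes was taken off. Its DMSO libraries held 25.6, 24.8 and 26.0 TPM, those at 8 h 26.9, 29.7 and 36.0, and those at 24 h 34.6, 32.8 and 34.6. Every IACS library thus lay above every DMSO library at both times, the only member for which that was so at 8 h, where 7.13% of all genes did the same and 1.65% lay below DMSO. At 24 h it was 1 of 3 such members, with EIF2AK1 and EIF2S3, against 19.4% of all genes. The log2 change was 0.26 ± 0.12 (SE, n = 3 against 3; limma, adjusted p = 0.982) at 8 h and 0.40 ± 0.12 (limma, adjusted p = 0.214) at 24 h, and 0.20 and 0.33 above the median of all genes. Relative to that median, EIF2S1 lay farther out on the lower side, at -0.24 at 8 h and -0.35 at 24 h. With the libraries scaled by the median of ratios the change at 24 h was 0.32 and its adjusted p 0.048 by limma (2.6% of all genes passed that p), still under the fold threshold. Over the alternatives the DELE1 change at 24 h ran from 0.32 to 0.43, and its adjusted p by limma from 0.026 to 0.614. The highest 8 h value came from the library with the lowest noncoding share of all 18, 39.6%, in which 7 of the 10 members had their highest MV4-11 level, and the part of that share in the DELE1 difference was not tested.

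In THP1, DELE1 held 24.1, 22.9 and 17.8 TPM with DMSO, 19.2, 25.1 and 17.7 at 8 h, and 22.3, 25.6 and 16.9 at 24 h. The groups overlapped throughout, as they did for every member in THP1 (against 4.76% of all genes that did not overlap at 8 h, 13.5% at 24 h and 7.7% between 24 h and 8 h), with log2 changes of -0.07 and -0.01 (SE 0.19 for each) that were called under 0 of the alternatives. The test of the difference between the lines in the response to 24 h of IACS gave -0.41 ± 0.23 for DELE1 (THP1 minus MV4-11, 95% interval -0.89 to 0.07, limma, adjusted p = 0.697), of which -0.20 was the median of all genes. In that test 0 of 10 members were called at 24 h and 0 at 8 h, beside 0.00796% of genes at either time. At an unadjusted p under 0.05, limma called 7.06% of all genes at 24 h, 2.92% at 8 h, and 0 members.

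The ratio of DELE1 to its partner kinase EIF2AK1 in the same library is not moved by a common scaling. In MV4-11 it was 0.594, 0.558 and 0.644 with DMSO, 0.725, 0.746 and 0.714 at 8 h, and 0.758, 0.710 and 0.738 at 24 h, so that both IACS groups lay above DMSO without overlap. In THP1 it was 0.591, 0.554 and 0.498 with DMSO, 0.525, 0.577 and 0.567 at 8 h, and 0.607, 0.598 and 0.550 at 24 h, and the groups overlapped. Of all genes tested in both lines, 17.5% had a ratio to EIF2AK1 in MV4-11 that was higher without overlap at 8 h and 9.16% at 24 h. The ratio was chosen after its values were seen, and was given no test.

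OMA1 (chr1:58415384-58546802, minus strand), the protease that cuts DELE1, was among the 4 least abundant members. In MV4-11 it held 7.84, 6.79 and 6.02 TPM with DMSO, 6.76, 7.35 and 9.08 at 8 h, and 8.19, 8.98 and 7.10 at 24 h. In THP1 it held 9.55, 8.24 and 7.27 TPM with DMSO, 8.81, 10.2 and 7.37 at 8 h, and 8.84, 8.90 and 9.59 at 24 h. The groups overlapped in both lines. The log2 changes were 0.15 and 0.21 (SE 0.14) in MV4-11 and 0.06 and 0.12 (SE 0.16) in THP1, with adjusted p from 0.599 to 0.982 by limma.

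EIF2AK1 (chr7:6022247-6059175, minus strand) encodes HRI, the kinase that binds DELE1. In MV4-11 it held 43.0, 44.5 and 40.3 TPM with DMSO, 37.1, 39.8 and 50.5 at 8 h, and 45.6, 46.2 and 47.0 at 24 h. The 24 h libraries lay narrowly above all DMSO libraries, with a log2 change of 0.12 ± 0.12 (limma, adjusted p = 0.754). Of that change 0.08 was the median of all genes, and the alternatives took it as low as 0.03. In THP1 it held 40.8, 41.2 and 35.7 TPM with DMSO, 36.5, 43.4 and 31.2 at 8 h, and 36.7, 42.8 and 30.7 at 24 h, and the groups overlapped. Of its 5492 exonic bases, 532 are shared with AIMP2 on the opposite strand, a gene of up to 74.0 TPM, and the sources used here do not state whether the counting used the strand, so some reads may belong to either gene.

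The 3 other kinases respond to signals that do not come from DELE1, and they overlapped between groups in both lines. EIF2AK2 (chr2:37099210-37157522, minus strand), the sensor of double-stranded RNA, held 4.96, 4.38 and 3.54 TPM in MV4-11 with DMSO, 4.04, 4.22 and 4.59 at 8 h, and 4.52, 4.42 and 3.70 at 24 h. EIF2AK3 (chr2:88556741-88691518, minus strand), the sensor in the endoplasmic reticulum, held 7.87, 8.85 and 8.00 TPM in the MV4-11 DMSO libraries, 8.15, 8.63 and 10.8 at 8 h, and 9.15, 9.52 and 8.66 at 24 h. EIF2AK4 (chr15:39934115-40035591, plus strand), the sensor of uncharged tRNA, held 14.5, 14.3 and 13.1 TPM in MV4-11 with DMSO, 13.6, 13.2 and 17.2 at 8 h, and 14.5 in each library at 24 h. None of the 3 differed by more than 0.134 on the log2 scale in MV4-11 at either time.

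In THP1 the spread of these kinases between libraries was wider. EIF2AK2 held 23.1, 22.5 and 19.1 TPM with DMSO, 18.2, 20.0 and 16.1 at 8 h, and 20.4, 21.1 and 18.4 at 24 h. EIF2AK3 held 8.44, 7.55 and 5.23 TPM with DMSO, 6.18, 7.72 and 5.14 at 8 h, and 5.90, 6.28 and 5.46 at 24 h. EIF2AK4 held 17.1, 14.8 and 12.7 TPM with DMSO, 14.0, 16.1 and 12.9 at 8 h, and 15.9, 16.1 and 13.4 at 24 h. EIF2AK2 at 8 h (-0.24 ± 0.14, limma, adjusted p = 0.941) and EIF2AK3 at 24 h (-0.21 ± 0.19, limma, adjusted p = 0.742) had the estimates farthest from zero, and both groups overlapped with DMSO. With median-of-ratios scaling these were -0.10 and -0.08, and EIF2AK4 at 24 h was 0.16 in place of 0.03 (limma, adjusted p = 0.200 scaled).

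The makeup of the kinase transcripts differed more between the lines than between the groups of a line, except in the share of EIF2AK4. EIF2AK1 made up 61.7% ± 0.50 (SD, n = 3) of the summed kinase TPM in the MV4-11 DMSO libraries, 60.1% ± 0.97 at 8 h and 62.4% ± 1.02 at 24 h. In THP1 it made up 47.5% ± 1.73, 48.8% ± 1.03 and 47.1% ± 2.25. EIF2AK2 took from 5.01% to 7.05% of that sum over the MV4-11 libraries and from 22.9% to 27.0% over the THP1 libraries, with no overlap between the lines. The share of EIF2AK4 did overlap, from 19.4% to 21.7% over the MV4-11 libraries and from 17.2% to 20.2% over the THP1 libraries.

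**Figure D3:**
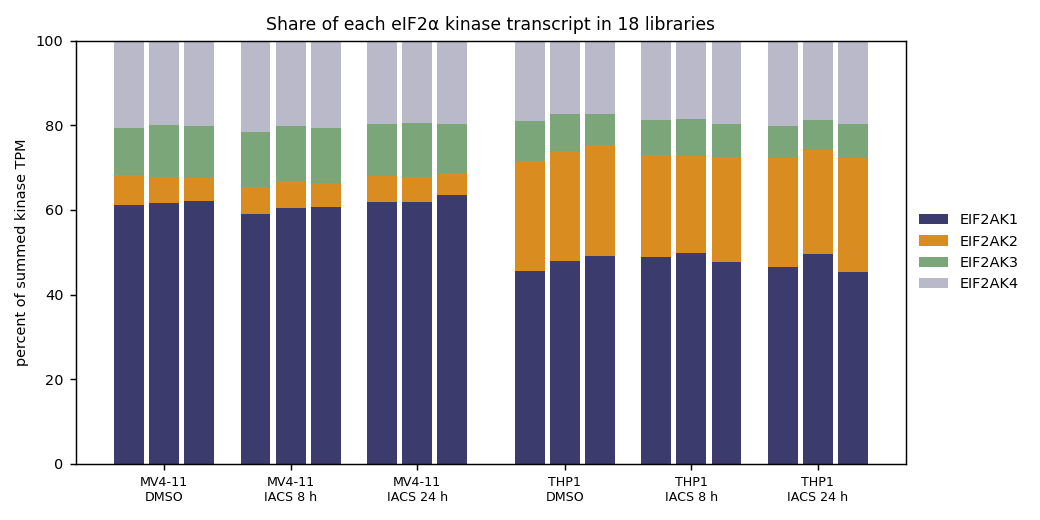
Share of each kinase in the summed TPM of the 4 eIF2α kinase transcripts (vertical axis, percent), with 1 bar for each of the 18 libraries. EIF2AK1 makes up the largest part of every bar, and EIF2AK2 takes 22.9% to 27.0% in THP1 against 5.01% to 7.05% in MV4-11.

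The eIF2 subunits form a complex of 1 α, 1 β and 1 γ chain, of which α carries the phosphorylated serine and γ binds GTP and the initiator tRNA. EIF2S1 (chr14:67360328-67386516, plus strand) held 48.8, 48.8 and 44.8 TPM in the MV4-11 DMSO libraries, 41.2, 37.8 and 47.1 at 8 h, and 36.0, 38.9 and 42.6 at 24 h. At 24 h it was the only member whose IACS libraries all lay below DMSO, where 5.26% of all genes did, with a log2 change of -0.27 ± 0.12 (95% interval -0.53 to -0.02, limma, adjusted p = 0.377). Over the alternatives that change ran from -0.37 to -0.22, within the fold threshold, and its adjusted p by limma from 0.036 to 0.806. In THP1 it held 56.5, 48.1 and 42.1 TPM with DMSO, 44.1, 51.3 and 34.6 at 8 h, and 42.2, 41.5 and 35.4 at 24 h. There the 24 h group overlapped DMSO by its highest library, 42.2 against 42.1 TPM, and the change was -0.29 ± 0.17 (limma, adjusted p = 0.628). Within each of the 3 same-numbered pairs the 24 h library was the lower, a pattern not counted over all genes, whose median there was -0.12. With the replicate block the adjusted p by limma was 0.076, in a fit that called 241 genes lower and 55 higher. With median-of-ratios scaling the change was -0.15.

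EIF2S3 (chrX:24054946-24078810, plus strand), the most abundant member, stood on the other side of zero. In MV4-11 it held 247, 241 and 228 TPM with DMSO, 231, 243 and 265 at 8 h, and 285, 275 and 283 at 24 h. The 24 h libraries lay above all DMSO and all 8 h libraries, and against 8 h it was the only member to do so (2.23% of all genes). The change at 24 h against DMSO was 0.23 ± 0.11 (limma, adjusted p = 0.427). In THP1 EIF2S3 held 197, 177 and 157 TPM with DMSO, 166, 185 and 144 at 8 h, and 196, 199 and 170 at 24 h, and the groups overlapped, with a change of 0.09 ± 0.14 at 24 h (limma, adjusted p = 0.844). With median-of-ratios scaling that change was 0.24 (limma, adjusted p = 0.120, and 0.027 with the block added), still under the fold threshold. Its near-identical retrocopy EIF2S3B was listed at no more than 0.0719 TPM in any library. EIF2S2 (chr20:34088309-34112243, minus strand) overlapped between groups in both lines, between 122 and 150 TPM in MV4-11 and between 126 and 188 in THP1. Its THP1 change at 24 h was 0.07, and ran from -0.05 to 0.22 over the alternatives, within the fold threshold. The lowest adjusted p among them was 0.043 by limma.

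The balance of the subunits was also read within each library, where a common scaling cancels. In MV4-11 the ratio of EIF2S3 to EIF2S1 was 5.07, 4.93 and 5.08 with DMSO, 5.60, 6.44 and 5.64 at 8 h, and 7.91, 7.06 and 6.63 at 24 h. In THP1 it was 3.49, 3.68 and 3.73 with DMSO, 3.76, 3.60 and 4.17 at 8 h, and 4.66, 4.81 and 4.81 at 24 h. At 24 h all IACS libraries lay above all DMSO libraries of their line, whereas at 8 h this held in MV4-11 and not in THP1. Of all genes tested in both lines, 53.0% in MV4-11 and 33.4% in THP1 had such a higher ratio to EIF2S1 at 24 h. At 8 h the shares were 42.7% in MV4-11 and 8.67% in THP1.

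The ratio of EIF2S2 to EIF2S1 behaved alike. In MV4-11 it was 2.83, 2.74 and 2.97 with DMSO, 3.45, 3.52 and 3.20 at 8 h, and 3.51, 3.15 and 3.40 at 24 h. In THP1 it was 3.32, 3.37 and 3.21 with DMSO, 3.67, 3.63 and 3.65 at 8 h, and 4.45, 4.30 and 4.06 at 24 h. IACS libraries lay above DMSO without overlap at both times in both lines.

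A gene that holds its level gains on EIF2S1 wherever EIF2S1 is lower, so these ratios were set beside all genes. At 24 h, the ratio to EIF2S1 was higher without overlap in both lines for 7 of the other 9 members (OMA1, DELE1, EIF2AK1, EIF2AK4, EIF2S2, EIF2S3 and PPP1R15B) and for 20.4% of 12554 genes. At 8 h it was so for 3 of them (OMA1, EIF2AK4 and EIF2S2) and for 5.27% of genes. The log2 ratio of EIF2S3 to EIF2S1 differed by 0.52 in MV4-11 and 0.39 in THP1 between 24 h and DMSO, and 10.4% of genes differed from EIF2S1 by at least the smaller of these in both lines. EIF2S1 was picked as the denominator after its values were seen, so no test was made.

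**Figure D4:**
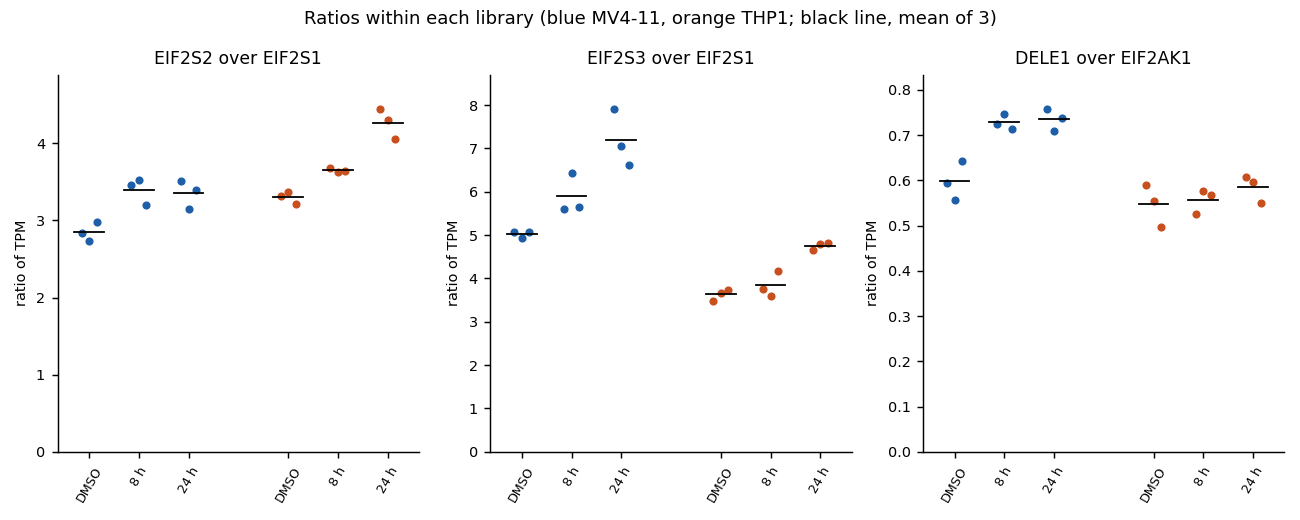
Ratios of TPM within each library (vertical axes, linear, starting at 0) for EIF2S2 to EIF2S1, EIF2S3 to EIF2S1 and DELE1 to EIF2AK1, with MV4-11 in blue, THP1 in orange and a black line at the mean of 3. The 24 h points of both subunit ratios lie above the DMSO points in each line, and the DELE1 ratio separates from DMSO in MV4-11, while its THP1 groups overlap.

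PPP1R15B (chr1:204396492-204411887, minus strand) brings protein phosphatase 1 to eIF2α in unstressed cells. In MV4-11 it held 52.7, 49.7 and 46.4 TPM with DMSO, 43.6, 48.1 and 58.9 at 8 h, and 51.1, 48.7 and 47.3 at 24 h. In THP1 it held 115, 107 and 93.1 TPM with DMSO, 100, 112 and 87.9 at 8 h, and 112, 114 and 95.9 at 24 h. Groups overlapped in both lines, and its 4 log2 changes lay between -0.07 and 0.03.

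The lines themselves differed in PKR and in the phosphatase subunit. Between THP1 and MV4-11 with DMSO, EIF2AK2 was higher in THP1 by 2.10 ± 0.13 on the log2 scale (95% interval 1.82 to 2.38, limma, adjusted p = 1.64e-10) and PPP1R15B by 1.06 ± 0.13 (0.78 to 1.34, limma, adjusted p = 2.51e-06). These were 2 of 10 members called, below the background of 31.5% of all genes, and they did not overlap (26.7% of genes on the higher side), nor did DELE1 and EIF2S3 on the lower side (30.8%). The 8 h libraries gave the same 2 calls (34.8%), at 1.85 and 0.99, and the 24 h libraries gave them at 2.01 and 1.11 (37.8%). All 9 THP1 libraries lay above all 9 MV4-11 libraries for both genes (11.9% of all genes), from 16.1 to 23.1 TPM against 3.54 to 4.96 for EIF2AK2 and from 87.9 to 115 against 43.6 to 58.9 for PPP1R15B. In such bulk libraries, fewer cells expressing a gene and less RNA per cell cannot be told apart.

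At 24 h a member was also called on the lower side, DELE1, at 21.6 TPM ± 4.36 (SD, n = 3) in THP1 and 34.0 ± 1.06 in MV4-11 (-0.65 ± 0.16, limma, adjusted p = 0.0023). The call depends on the scaling: the median of all genes was -0.22 in that comparison, and with median-of-ratios scaling the difference was -0.45 and under the fold threshold. Without replicate 3 of the THP1 24 h group it was -0.49 and also under it. With DMSO the difference was -0.24 ± 0.16 (limma, adjusted p = 0.245). For the 8 h libraries it was -0.57 ± 0.16 (limma, adjusted p = 0.0070). By adjusted p alone, limma had 3 members with DMSO (44.7% of all genes), 5 at 8 h (49%) and 5 at 24 h (52.3%). EIF2S3 was lower in THP1 by that rule in all 3 comparisons, by -0.43, -0.58 and -0.57, and EIF2AK3 at 8 h and 24 h, by -0.48 and -0.56. OMA1, EIF2AK1, EIF2AK4, EIF2S1 and EIF2S2 had an adjusted p above 0.05 by limma in all 3 comparisons. With median-of-ratios scaling, 6 members passed the adjusted p with DMSO (62.2% of all genes), 9 at 8 h (62%) and 9 at 24 h (64.4%), and 2 were called in each. EIF2S2 at 24 h was 0.36 higher in THP1 (limma, adjusted p = 0.051), 0.58 with that scaling, and called at 0.64 without the 5 noncoding RNAs and at 0.61 by voom.

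**Figure D5:**
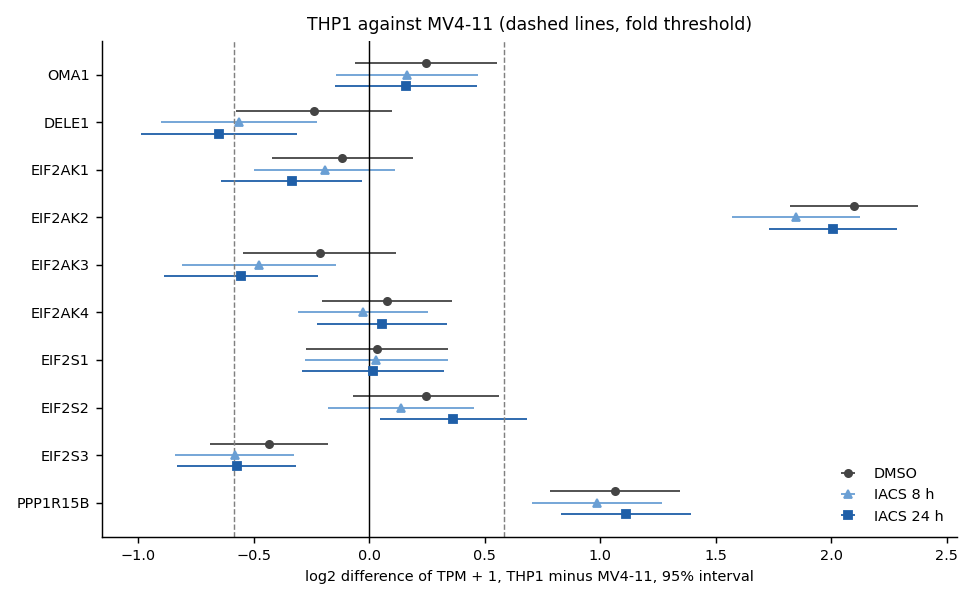
Log2 difference of TPM + 1, THP1 minus MV4-11, for the 10 genes with DMSO (grey circles), 8 h (light triangles) and 24 h of IACS (dark squares), with bars for the 95% interval from limma and dashed lines at 1.5-fold in either direction. EIF2AK2 sits near 2 and PPP1R15B near 1 in all 3 conditions, and DELE1 passes the lower dashed line at 24 h only.

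The inducible counterpart of PPP1R15B, PPP1R15A (GADD34), differed between the lines in the other direction, at 30.2 TPM in MV4-11 and 13.7 in THP1 with DMSO (-1.09 ± 0.18). The ratio of PPP1R15B to PPP1R15A was 1.65 ± 0.17 (SD, n = 3) in the MV4-11 DMSO libraries, 1.38 ± 0.15 at 8 h and 1.29 ± 0.10 at 24 h. In THP1 it was 7.68 ± 0.31, 5.70 ± 0.50 and 7.53 ± 1.77. The lowest THP1 ratio, 5.36, was above the highest in MV4-11, 1.84.

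The promoters of the 2 genes called between the lines in all 3 conditions are shown for the response elements their letters hold. In 270 bases (250 before the annotated start and 20 from it) of RefSeq's GRCh38.p14 promoters, available for 8 members (not EIF2AK1 and EIF2S2), both strands were searched for the C/EBP-ATF response element, TGATGNAA, which ATF4 binds, and for the core of the interferon-stimulated response element, GAAA, any 2 bases and GAAA. The first was found in 1 of 8 members, PPP1R15B, and in 3.37% of 35116 promoters. The second was found in 1 of 8 members, EIF2AK2, across its start, and in 3.30% of promoters, and the 20 bases were added after 0 of 8 held it in the 250 before the start. The matches do not overlap and are marked in capitals, and a match of letters is not evidence of binding. The stretches are chr2:37156961-37157230 and chr1:204411798-204412067, both on the minus strand. Their starts are those of RefSeq and differ from the ends of the GENCODE spans printed above. The stretches searched for EIF2AK2 and EIF2AK3 lie within those spans.
EIF2AK2: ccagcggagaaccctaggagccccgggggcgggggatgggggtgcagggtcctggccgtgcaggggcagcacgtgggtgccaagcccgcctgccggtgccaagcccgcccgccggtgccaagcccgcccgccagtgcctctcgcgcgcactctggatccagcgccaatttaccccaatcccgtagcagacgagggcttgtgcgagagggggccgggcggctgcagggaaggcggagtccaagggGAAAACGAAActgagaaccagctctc
PPP1R15B: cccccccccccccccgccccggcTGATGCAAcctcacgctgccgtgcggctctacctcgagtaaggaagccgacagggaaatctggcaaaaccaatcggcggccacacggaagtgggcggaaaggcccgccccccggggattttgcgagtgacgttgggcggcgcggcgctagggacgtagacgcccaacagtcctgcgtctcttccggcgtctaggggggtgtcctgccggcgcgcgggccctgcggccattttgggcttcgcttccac

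Other genes of the pathway were read from 5 lists. Among the 12 partners of the mitochondrial relay, 13 kinase regulators, 16 eIF2B and initiation factors, 4 phosphatase subunits and 6 tested of 8 ISR transcription factors, 0 genes were called in any comparison of IACS with DMSO, either higher or lower. The transcription factors were the list set apart by its values: 6 of 6 lay above zero in MV4-11 at 8 h and at 24 h, 5 of 6 in THP1 at 8 h and 6 of 6 at 24 h, with medians of 0.36, 0.34, 0.30 and 0.44 beside medians of all genes of 0.06, 0.08, -0.12 and -0.12. ATF4, the factor whose translation the pathway favors, held a mean of 179 TPM with DMSO, 231 at 8 h and 252 at 24 h in MV4-11, and 139, 182 and 207 in THP1. Its MV4-11 IACS libraries all lay above DMSO (7.13% of all genes at 8 h and 19.4% at 24 h). The THP1 libraries held 158, 142 and 116 TPM with DMSO, 194, 217 and 135 at 8 h, and 241, 243 and 138 at 24 h. There the lowest IACS library at each time lay within the DMSO range. Scaled by the median of ratios, ATF4 (0.68, limma, adjusted p = 0.032) and TRIB3 (1.08, limma, adjusted p = 0.017) were called higher in THP1 at 24 h (0.729% of all genes).

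The relay partners, which include the proteases and import factors around OMA1, had medians of -0.01 and -0.02 in MV4-11 and -0.11 and -0.28 in THP1. The kinase regulators had medians of 0.01, -0.01, -0.11 and -0.21, and their lowest mean over the 4 comparisons was that of HSPA5, the chaperone that holds PERK inactive, at -0.67. Scaled by the median of ratios, HSPA5 was called lower at 24 h in MV4-11 (0.582% of all genes called; -0.84, limma, adjusted p = 0.016) and THP1 (-0.66, limma, adjusted p = 0.026), and HSP90AA1, a chaperone of HRI, in MV4-11 (-0.73, limma, adjusted p = 0.031). The eIF2B and initiation list had medians of 0.00, 0.04, -0.15 and -0.22, and ran from 0.14 for EIF1 to -0.31 for EIF1AX in mean. The phosphatase list had medians of 0.03, 0.08, -0.11 and -0.12, and ran from 0.25 for PPP1R15A to -0.08 for PPP1CC.

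Between the lines with DMSO, PHB2 (-1.72) and LONP1 (-0.98) of the relay partners were called lower in THP1, ADAR (0.67), which edits double-stranded RNA, was called higher, and PPP1R15A was called lower. Of the transcription factors, DDIT3 (1.02) and TRIB3 (1.51) were called higher and CEBPG (-0.65) lower. No gene of the eIF2B and initiation list was called in that comparison, in which 31.5% of all genes were called.

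Members moved together from library to library. Centered on their line, the 45 pairs had a Pearson r over 18 libraries from 0.16 to 0.93 (EIF2AK4 with PPP1R15B), with a median of 0.65, and all share the noncoding share of their library. The genes most like DELE1 were PGGHG (r = 0.98), C9orf139 (0.97) and TAZ (0.97), and those most like EIF2AK1 were FOXK2 (0.98), TCF20 (0.96) and DCTN1 (0.96). For OMA1 they were LIMS1 (0.91), FAM102B (0.90) and ALG10B (0.89), and for PPP1R15B they were PYROXD1, NNT and DCTN6 (0.96 each). These are descriptions of 18 libraries that share depth and composition.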

How the data were processed

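The authors trimmed paired-end reads, aligned them to GRCh38 and counted them with CLC Genomics Workbench v20, and deposited TPM per gene symbol for 18 libraries of 2 cell lines. The annotation release and the strand setting are not given in the sources used here. The labels call the 3 libraries of a group independent replicates without naming separate cultures, so p-values measure the spread between these libraries. The members and gene lists were chosen with earlier results of these data known, and the genes named are the members, the ends of the lists, and the 3 genes most like OMA1, DELE1, EIF2AK1 and PPP1R15B.

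From the deposited TPM, log2(TPM + 1) was tested with limma 3.58.1 (R 4.3.3, variance trend) on genes averaging 1 TPM or more, in 9 libraries per line (13542 genes in MV4-11, 13928 in THP1), and in all 18 (12555 genes) for differences between the lines and in response. These tests were checked on simulated data. Whole reads were recovered from TPM steps with a tolerance of 0.001 reads, and 0 columns were left out. Coordinates and overlaps come from GENCODE release 44.

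Deviations from the group means were correlated across genes to check whether replicate numbers pair libraries. All 3 pairs exceeded 0.1 for THP1 DMSO and 24 h (0.15, 0.16 and 0.32) and for 8 h and 24 h in MV4-11 (0.11, 0.41 and 0.44) and THP1 (0.18, 0.28 and 0.36), not for other pairs of groups. After median-of-ratios scaling the MV4-11 values were 0.09, 0.41 and 0.42, so that not all exceeded 0.1, while those of THP1 still did. Alternatives were a pseudocount of 0.1, no filter or one at 10 TPM, median-of-ratios scaling, leaving out mitochondrially encoded genes or 5 noncoding RNAs, a replicate block (also with median-of-ratios scaling), no variance trend, only the groups compared, unadjusted p, adjusted p alone, Kruskal-Wallis tests, each library left out in turn and, chosen after seeing the data, voom on recovered reads. A gene of the interferon-inducible list is not reported here.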

Additional observations from a re-analysis of the deposited data

How the results depend on the processing

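In the comparisons of IACS with DMSO, of 24 h with 8 h, and of the response between lines, 0 members were called under every alternative, the replicate block and leaving out a library included, although the number of all genes called at 24 h against DMSO (12 in MV4-11 and 6 in THP1 as reported) ranged from 0 to 137 and from 1 to 16 with a library left out, and from 2 to 269 and from 4 to 307 under the other alternatives. A replicate block raised these to 100 genes in MV4-11 and 296 in THP1, with 0 members, and it changed no member's call in any comparison. Between the lines with DMSO, 2 members were called, and 1 with a mean of at least 10 TPM, a filter that EIF2AK2, EIF2AK3 and OMA1 do not pass. At 8 h, 2 were called, but 4 with a pseudocount of 0.1, 3 without mitochondrially encoded genes (adding EIF2S3), 1 with a mean of at least 10 TPM, 5 by adjusted p alone, and 2 to 5 with a library left out (4 without replicate 1 or 2 of the MV4-11 8 h group and 5 without replicate 2 of the THP1 8 h group, adding DELE1, EIF2S3 and EIF2AK3 on the lower side). At 24 h, 3 were called, but 5 by adjusted p alone and 2 to 5 with a library left out (5 without replicate 2 of the THP1 24 h group). EIF2AK3, not called as reported (-0.56), was called at -0.62 under 1 of the 10 other alternatives that refitted it. DELE1 at 24 h between the lines was -0.65, but -0.45 with median-of-ratios scaling with or without the block, -0.40 without the 5 noncoding RNAs and -0.43 by voom, each under the fold threshold. EIF2S2, not called as reported (0.36), was called in its place without the 5 noncoding RNAs (0.64) and by voom (0.61). EIF2AK2 and PPP1R15B kept their calls wherever they were tested. Estimates near zero changed sign with the processing: the sign was the same under all alternatives, leaving out a library included, for 4 members of 10 in MV4-11 after 8 h and 6 after 24 h, and for 2 and 4 in THP1. With 3 libraries per group, an exact permutation test of a single gene cannot go below 0.1.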

Other observations

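PKR is an interferon-inducible gene, and 11 other interferon-inducible genes, listed after the values of EIF2AK2 were seen, were read beside it. Of the 10 listed in the table (not OAS1), 7 were higher in all 9 THP1 libraries than in all 9 MV4-11 libraries, namely IFIT1, IFIT2, IFIT3, MX1, OAS2, IFIH1 and ADAR. Of all genes averaging 1 TPM or more in both lines, 11.9% lay higher in THP1 in this way, and 2 of the 5 listed genes that reach that level did, IFIH1 and ADAR. Most were low: the median was 1.71 TPM in THP1 against 0.0906 in MV4-11 for IFIT3, 2.73 against 0.821 for OAS2 and 5.69 against 3.12 for IFIH1. IRF7 lay the other way, at 6.79 TPM in THP1 and 11.6 in MV4-11, without overlap. ISG15 and DDX58 overlapped between the lines, with medians of 13.7 TPM in THP1 and 14.0 in MV4-11 for ISG15 and of 4.20 and 4.61 for DDX58. No test was made of this list.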
